A study of Mus musculus with 18 samples.

Results

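The 10 genes described here mark lymphocytes, the T, natural killer (NK) and B cells that make up a small part of a mouse liver. Cd3e, Cd3g and Cd8a mark T cells, Nkg7, Gzma and Klrb1c mark NK and other cytotoxic cells, and Cd79a, Cd79b, Ms4a1 and Ighm mark B cells. They were chosen by name as markers, and all 10 were found among the 38924 genes of the male count table. In the female table, with 23337 gene names, 9 of the 10 were found. No row there was matched to Ighm by its symbol or a RefSeq synonym, so its level in female livers was not analysed here. Liver RNA came from 18 mice in 6 groups of 3, all 8 weeks old and all fed the diet D12451, in which fat supplies 45% of the energy. The first experiment used C57BL6J males and females that either received low-dose penicillin (LDP) from birth or received none, were weaned at week 4 and ate the fat-rich diet from week 6. Its mice are named here LDP males 8, 10 and 11, control males 5, 6 and 7, LDP females 39, 52 and 54, and control females 29, 30 and 32. In the second experiment, female germ-free Swiss Webster mice, an outbred stock, were colonised at week 3 with gut microbiota from female donors and received no antibiotic themselves. Recipients 2, 5 and 8 had the microbiota of LDP mice, and recipients 1, 3 and 7 that of control mice. Cage, litter and number of donors are not given, so p-values measure the spread between these mice and treat each as independent.

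Lymphocytes recognise antigen through surface receptors whose signalling chains are shared by all cells of a lineage. T cells carry a receptor coupled to CD3 chains, B cells carry a membrane antibody coupled to Cd79a and Cd79b, and NK cells kill through granules without a rearranged receptor. In the liver these cells sit in the sinusoids and portal tracts, where blood from the gut arrives with bacterial products, and NK and other cytotoxic cells are known to be common there. Whole-liver RNA is mostly that of hepatocytes, and all 10 hepatocyte genes examined, such as Alb, had counts in every group. In such bulk RNA, fewer cells of a type and less RNA per cell cannot be told apart.

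The members lie on chromosomes 6, 7, 9, 11, 12, 13 and 19 of GRCm38 (annotation GENCODE M21, the build named mm10 in the submitters' notes). Cd3g (chr9:44969572-44980431) and Cd3e (chr9:44998740-45009627) lie close together on the minus strand. Cd79a (chr7:24897381-24902197) and Nkg7 (chr7:43437073-43438249) lie on the plus strand, Ms4a1 (chr19:11249675-11266241) and Cd79b (chr11:106311341-106314762) on the minus strand. Ighm (chr12:113418558-113422730, minus strand) is annotated as an immunoglobulin constant gene. It is the constant segment that every IgM heavy chain shares. RefSeq gives a promoter window, from 250 bases before to 50 after the start, for 7 of the 10 members on GRCm38.p6. The promoter of 1 member per lineage is shown here, since these are the sequences from which the counted RNA starts. Capitals mark AGGAAG, the core bound by ETS factors (a family that includes PU.1 and acts in blood cells), read on either strand. The windows are chr9:45009562-45009861 (minus strand), chr7:43436888-43437187 (plus strand) and chr7:24897247-24897546 (plus strand).
Cd3e: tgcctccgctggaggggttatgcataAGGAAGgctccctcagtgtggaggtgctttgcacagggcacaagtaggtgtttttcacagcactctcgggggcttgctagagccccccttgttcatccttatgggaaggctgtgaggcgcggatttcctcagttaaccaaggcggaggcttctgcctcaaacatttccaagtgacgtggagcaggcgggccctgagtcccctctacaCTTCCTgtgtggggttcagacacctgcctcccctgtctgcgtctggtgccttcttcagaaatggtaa
Nkg7: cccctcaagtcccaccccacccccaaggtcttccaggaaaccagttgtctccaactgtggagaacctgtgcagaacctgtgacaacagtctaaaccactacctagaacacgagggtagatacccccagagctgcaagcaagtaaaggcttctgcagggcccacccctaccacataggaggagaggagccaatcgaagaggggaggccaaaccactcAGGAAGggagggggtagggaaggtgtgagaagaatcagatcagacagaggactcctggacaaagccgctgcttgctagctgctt
Cd79a: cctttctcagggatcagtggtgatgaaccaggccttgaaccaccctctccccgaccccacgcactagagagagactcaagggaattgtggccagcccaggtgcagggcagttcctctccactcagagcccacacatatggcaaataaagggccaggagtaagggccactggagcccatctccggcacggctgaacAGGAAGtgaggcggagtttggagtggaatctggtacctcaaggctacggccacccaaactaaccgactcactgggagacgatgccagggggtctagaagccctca
Of the 7 member promoters, 4 (Cd3e, Klrb1c, Nkg7 and Cd79a) held AGGAAG, a motif found in 35.1% of 27025 RefSeq promoter windows of the same length. TGTGGT, the core bound by RUNX factors, was found on either strand in 3 (Gzma, Klrb1c and Nkg7), against 16.9% of all windows. No member window held TATAAA, which 14.2% of all windows hold. These are matches of letters and not bound sites.

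Totals ranged from 70336366 to 74418889 counts in male libraries and from 17937005 to 28646168 in female ones. Xist and the Y-linked genes Ddx3y and Uty followed the labelled sex in all libraries. LDP male 11 stood apart in 1 respect: leaving it out raised the number of genes passing between the male groups from 1 to 66. The members' differences in males are therefore also given without it. The lymphocyte markers were scarce. Leaving out Ighm, a member had 15 to 76 counts in a male liver and 2 to 42 in a female liver. With so few reads, counting error was a large part of the spread. The coefficient of variation over 3 mice was above its counting error in 36 of 56 pairs of gene and group. Intervals for counts cover counting error only. Reads carry no molecular identifiers, so repeated reads of the same molecule could not be told apart and these intervals may be too narrow.

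Levels of different genes were compared in males only, as CPM (counts scaled to a common library size) divided by the deposited gene length in kilobases. On this scale Ighm was the most abundant member, at 2.13 ± 0.358 CPM per kb in control males and 3.72 ± 0.79 in LDP males (SD, n = 3 each). Cd3g, Cd79b, Nkg7 and Gzma came next, at 0.526 ± 0.12, 0.518 ± 0.0548, 0.506 ± 0.104 and 0.5 ± 0.161 CPM per kb in control males, and these 4 differed by less than their spread. Cd3e and Cd79a followed at 0.345 ± 0.022 and 0.317 ± 0.0583 CPM per kb, again closer together than their spread. Klrb1c and Ms4a1, at 0.17 ± 0.0554 and 0.158 ± 0.0249 CPM per kb, could not be ordered either. Cd8a, the coreceptor chain of killer T cells, was lowest at 0.0805 ± 0.0215 CPM per kb.

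**Figure D1:**
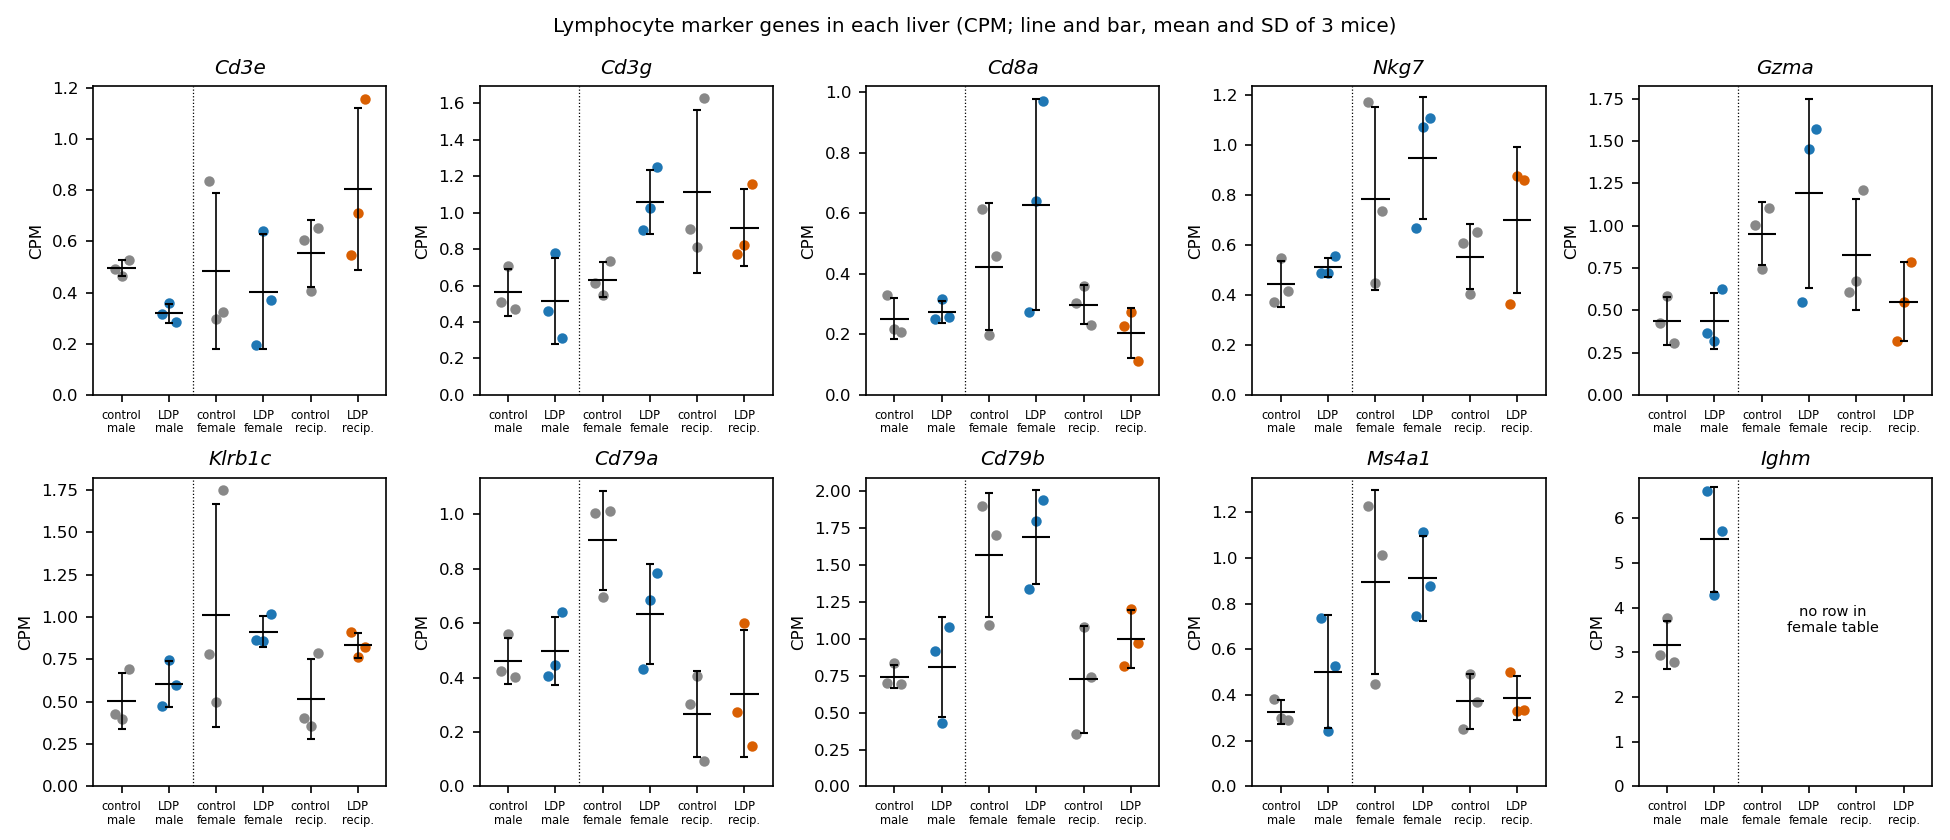
Each panel gives 1 member gene; the y axis is CPM scaled by the trimmed mean of M values (TMM), each point is 1 liver, and the line and bar are the mean and SD of 3 mice. Ighm is the member whose male groups stand furthest apart (2.77 to 3.77 against 4.28 to 6.61 CPM), and Cd79a, Cd79b and Ms4a1 sit lower in the recipients than in the other females.

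In male livers, the IgM heavy chain gene Ighm had more reads in each LDP mouse than in any control. Control males 5, 6 and 7 had 214, 276 and 200 counts, or 2.94, 3.77 and 2.77 CPM. LDP males 8, 10 and 11 had 401, 503 and 298 counts, or 5.71, 6.61 and 4.28 CPM. All 3 LDP livers lay above all 3 controls, and the lowest of them was male 11. The means were 5.53 ± 1.17 and 3.16 ± 0.532 CPM (SD, n = 3 each), a ratio of 1.75 and a log2 difference of 0.81 (SE 0.19, 95% interval 0.39 to 1.23). The unadjusted p of edgeR was 0.00186, but the p adjusted over all 15438 genes was 0.871, so this difference did not pass. It did pass with DESeq2 (log2 0.81, adjusted p = 0.0286) and with edgeR without LDP male 11 (0.96, adjusted p = 0.043). Ighm passed in only these 2 of 13 alternatives, over which its adjusted p ran from 0.0286 to 1. Leaving out male 11, the LDP liver with the least Ighm, enlarges the difference, so that pass is no separate support. Reads of near-identical immunoglobulin segments may be split between genes by the counting, which leaves the Ighm value uncertain.

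The other B cell members did not separate the male groups. Ms4a1, the gene of the surface protein CD20, had 28, 22 and 21 counts in control males 5, 6 and 7 and 37, 56 and 17 in LDP males 8, 10 and 11. LDP males 8 and 10 were above every control and LDP male 11 below every control, so the groups overlapped (log2 difference 0.63, SE 0.41, 95% interval -0.28 to 1.54, adjusted p = 0.92). The Ms4a1 difference depended on these mice: leaving out LDP male 10 gave 0.24, and leaving out LDP male 11 gave 0.96 (adjusted p = 0.265). Cd79b, a signalling chain of the B cell receptor, showed the same arrangement, with 51, 61 and 50 counts in controls and 76, 70 and 30 in LDP males (log2 difference 0.13, SE 0.33). Its partner chain Cd79a had 31, 41 and 29 counts in controls and 45, 31 and 31 in LDP males 8, 10 and 11 (log2 difference 0.10, SE 0.30). Among B cell genes outside the members, 20 of 23 listed were tested, of which 14 were higher and 6 lower in LDP males. Their median log2 difference was 0.24, beside 0.002 over all genes, and 0 passed by edgeR (1 at an unadjusted p under 0.05) or DESeq2 (8 given an adjusted p). Blnk, an adaptor of B cell receptor signalling that macrophages also express, had the smallest p, with 1.59 ± 0.442 CPM in LDP males and 1.03 ± 0.103 in controls (adjusted p = 0.92). Fcmr, the Fc receptor for IgM, was at 0.346 ± 0.112 and 0.197 ± 0.0338 CPM (adjusted p = 0.92). Cxcr5, the chemokine receptor that guides B cells into follicles, was at 0.537 ± 0.17 and 0.311 ± 0.089 CPM (adjusted p = 0.92).

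Genes of antibody-secreting cells showed no common direction in males. Igha, the constant segment of the IgA heavy chain, had 62, 50 and 40 counts in control males 5, 6 and 7 and 34, 34 and 22 in LDP males 8, 10 and 11. Every LDP liver was below every control, opposite to Ighm, at 0.416 ± 0.0883 against 0.696 ± 0.148 CPM (log2 difference -0.74, adjusted p = 0.92). Jchain, which links IgA and IgM into polymers, was at 1.09 ± 0.0977 in LDP and 0.999 ± 0.0127 CPM in control males. Mzb1, a chaperone of antibody assembly, had 8, 22 and 18 counts in controls and 23, 31 and 21 in LDP males 8, 10 and 11. Like Ighm it was higher in CPM in every LDP liver, at 0.345 ± 0.0551 against 0.22 ± 0.0987 CPM (adjusted p = 0.92), though the nearest livers of the groups were at 0.302 and 0.3 CPM. Of 17 listed plasma cell and immunoglobulin genes 10 were tested, 5 higher and 5 lower with a median of -0.12, and 0 passed by edgeR (1 unadjusted) or DESeq2 (4 given an adjusted p).

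**Figure D2:**
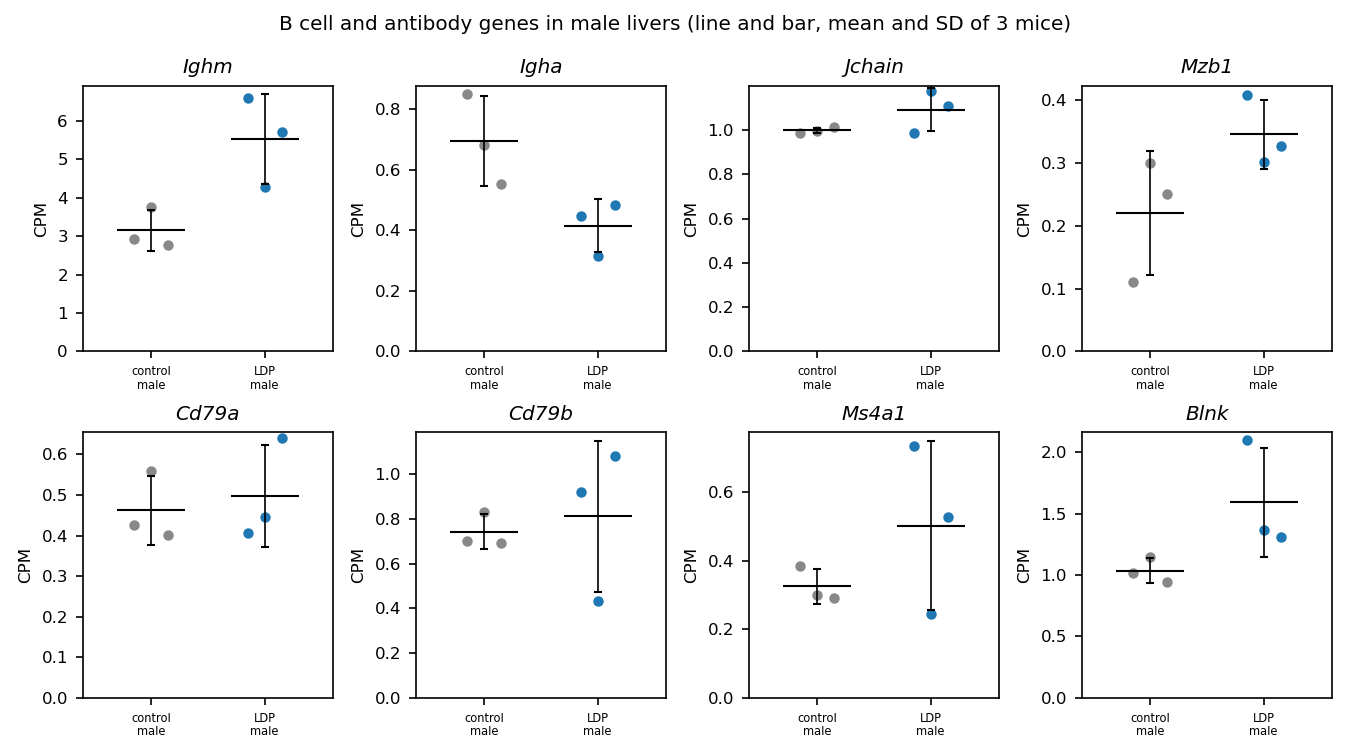
CPM (y axis, TMM-scaled) of 8 B cell and antibody genes in 6 male livers; points are mice, and the line and bar are the mean and SD of 3. Ighm was higher in every LDP liver than in any control, Igha was lower in every LDP liver, and Cd79a, Cd79b, Ms4a1 and Jchain overlapped between the groups.

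Among T cell members in males, Cd3e lay on the other side. Cd3e, the CD3 epsilon chain, had 36, 34 and 38 counts in control males 5, 6 and 7 and 20, 24 and 25 in LDP males 8, 10 and 11. All LDP livers lay below all controls, at 0.32 ± 0.0373 against 0.495 ± 0.0316 CPM (SD, n = 3 each). The log2 difference was -0.63 (SE 0.27, 95% interval -1.24 to -0.01, adjusted p = 0.92). The spread within both groups, 11.7% and 6.38% of the mean, was under the counting error of 20.9% and 16.7%, so these SDs understate the error. Cd3g, another CD3 chain from a nearby gene, did not separate: it had 37, 52 and 34 counts in controls and 22, 35 and 54 in LDP males 8, 10 and 11 (log2 difference -0.13, SE 0.37). Cd8a had 24, 16 and 15 counts in controls and 18, 19 and 22 in LDP males (log2 difference 0.12, SE 0.34). Of 30 listed further T cell genes 26 were tested, 8 higher and 18 lower with a median of -0.14, and 0 passed by edgeR (1 unadjusted) or DESeq2 (5 given an adjusted p). That 1 was Cd8b1, the partner chain of Cd8a, at 0.0684 ± 0.0326 CPM in LDP and 0.206 ± 0.0749 CPM in control males (log2 difference -1.55, adjusted p = 0.92). Its counts were 14, 21 and 10 in controls and 3, 8 and 4 in LDP males 8, 10 and 11, so it rests on very few reads.

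The NK and cytotoxic members overlapped in males. Nkg7, a membrane protein of cytotoxic granules, had 27, 40 and 30 counts in control males 5, 6 and 7 and 39, 37 and 34 in LDP males 8, 10 and 11. Gzma, a granule protease, had 31, 43 and 22 counts in controls and 44, 28 and 22 in LDP males. Klrb1c, the NK cell receptor NK1.1, had 31, 29 and 50 counts in controls and 42, 36 and 52 in LDP males. Their log2 differences were 0.20, -0.01 and 0.26 with SEs of 0.28, 0.37 and 0.32, all smaller than their error. Of 30 listed NK and cytotoxic genes 18 were tested, with 5 higher, 13 lower and a median of -0.25, and 0 passed by edgeR (0 unadjusted) or DESeq2 (2 given an adjusted p). Cd160, a receptor of NK and cytotoxic T cells, was at 0.455 ± 0.0747 CPM in LDP and 0.65 ± 0.168 CPM in control males (adjusted p = 0.92).

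Over all 10 members in males, 7 were higher and 3 lower in LDP mice, with a median log2 difference of 0.12. By edgeR 0 passed at an adjusted p under 0.05, where 0.00648% of all genes did, and the smallest adjusted p was 0.871. By DESeq2 1 passed, Ighm, the only member to which DESeq2 gave an adjusted p. At an unadjusted p under 0.05 the members counted 2 (Ighm and Cd3e), where 5.23% of all genes did. Groups did not overlap for the same 2 members, where 10.5% of all genes did not overlap. Without LDP male 11 the log2 differences were -0.72 (Cd3e), -0.54 (Cd3g), 0.005 (Cd8a), 0.23 (Nkg7), 0.17 (Gzma), 0.083 (Klrb1c), 0.175 (Cd79a), 0.43 (Cd79b), 0.96 (Ms4a1) and 0.96 (Ighm). Gzma changed sign, and Ighm alone passed. Receptor signalling genes, shared by T and B cells and by myeloid cells, counted 4 higher and 16 lower of 20, with a median of -0.06. Vav1, an exchange factor downstream of both receptors, was at 4.3 ± 0.465 against 5.3 ± 0.136 CPM (adjusted p = 0.92). Chemokines and survival factors for lymphocytes counted 7 higher and 7 lower of 14, and in these lists 0 passed by edgeR (1 and 0 unadjusted) or DESeq2. Markers of resident macrophages lay lower in LDP males: this held for all 10 Kupffer cell genes, 7 of them at an unadjusted p under 0.05, with 0 passing by edgeR and 1 (Cd5l) by DESeq2. Their summed level was 453 to 495 CPM in LDP and 531 to 644 CPM in control males, with none at 0. Red blood cell genes summed to 141 to 171 CPM and 130 to 186 CPM. The part of either in the values above was not tested.

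In female livers given penicillin, the T cell gene Cd3g was the member that separated from controls. Control females 29, 30 and 32 had 11, 11 and 16 counts of Cd3g, or 0.614, 0.546 and 0.737 CPM. LDP females 39, 52 and 54 had 23, 24 and 27 counts, or 0.902, 1.03 and 1.25 CPM. Every LDP female was above every control, at means of 1.06 ± 0.175 and 0.632 ± 0.0967 CPM (SD, n = 3 each). The log2 difference was 0.73 (SE 0.29, 95% interval 0.09 to 1.38, adjusted p = 0.999), which did not pass. Its complex partner Cd3e, with 15, 6 and 7 counts in controls and 5, 15 and 8 in LDP females, did not reach the filter and was not tested. Its means, 0.403 ± 0.225 CPM in LDP and 0.486 ± 0.305 in control females, differed by less than their spread. Cd8a had 11, 4 and 10 counts in controls and 7, 15 and 21 in LDP females, and the groups overlapped (log2 difference 0.56, SE 0.54). Of 30 listed T cell genes 17 were tested, 8 higher and 9 lower with a median of -0.01. Ccr7, which guides naive T cells to lymph nodes, had the smallest p among them, at 0.742 ± 0.343 in LDP and 0.44 ± 0.108 CPM in control females.

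NK and B cell members overlapped between the female groups. Nkg7 had 21, 9 and 16 counts in control females 29, 30 and 32 and 17, 25 and 24 in LDP females 39, 52 and 54. Gzma had 18, 15 and 24 counts in controls and 14, 34 and 34 in LDP females. Klrb1c had 14, 10 and 38 counts in controls and 22, 20 and 22 in LDP females, and control female 32 was the highest of all 6. The log2 differences of these genes were 0.28, 0.31 and -0.17 with SEs of 0.39, 0.40 and 0.43. Cd79a had 18, 14 and 22 counts in controls and 11, 16 and 17 in LDP females (log2 difference -0.52, SE 0.33, adjusted p = 0.999). Cd79b had 34, 22 and 37 counts in controls and 34, 42 and 42 in LDP females (0.12, SE 0.27). Ms4a1 had 22, 9 and 22 counts in controls and 19, 26 and 19 in LDP females (0.04, SE 0.38). The 3 B cell genes thus showed no shared direction.

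Of the 8 members tested in females, 6 were higher and 2 lower, with a median log2 difference of 0.20 beside 0.003 over all 12914 genes. By edgeR 0 passed, where 0% of all genes did, and 1 had an unadjusted p under 0.05, where 4.51% of all genes did. That gene, Cd3g, was also the only member without overlap between the groups, where 9.15% of all genes had none. DESeq2 also passed 0 members, of which only 2 were given an adjusted p. In the lists around the members 0 genes passed by edgeR or DESeq2, and Blnk, Jchain, Cx3cl1 and Cxcl16 were those with an unadjusted p under 0.05. Blnk was at 2.94 ± 0.883 CPM in LDP females and 1.3 ± 0.584 CPM in controls (log2 difference 1.15, SE 0.34, adjusted p = 0.999), with all LDP females above all controls, as in males. It was 1 of 14 tested B cell genes, of which 8 were higher and 6 lower with a median of 0.06. Jchain was at 1.63 ± 1.4 and 0.566 ± 0.0745 CPM (adjusted p = 0.999), and its mean rests on LDP female 52, at 3.25 CPM. The 10 tested chemokine and survival genes were all higher in LDP females, with a median of 0.33. Cx3cl1, a membrane-bound chemokine for NK cells, T cells and monocytes, was at 0.86 ± 0.148 against 0.327 ± 0.121 CPM (adjusted p = 0.999). Cxcl16, which attracts T and NKT cells with the receptor Cxcr6, was at 12.2 ± 0.882 against 9.53 ± 1.48 CPM (adjusted p = 0.999). Cxcl10, a chemokine for activated T and NK cells, was at 12.8 ± 10.5 and 5.03 ± 1.98 CPM, LDP female 54 being the highest at 25 CPM. Markers of other cells were also higher: all 5 mesothelial genes were higher in LDP females, 3 at an unadjusted p under 0.05, and they summed to 8.32 to 21.7 CPM against 5.2 to 6.35 CPM with none at 0. All 8 tested of 9 monocyte genes were higher too, none at an unadjusted p under 0.05, at summed levels of 129 to 139 against 95.3 to 124 CPM. Their part in the values of the lymphocyte genes was not tested.

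In the germ-free mice colonised with LDP or control microbiota, none of the members separated by donor microbiota. Cd3e had 12, 9 and 14 counts in control-microbiota recipients 1, 3 and 7 and 12, 13 and 31 in LDP-microbiota recipients 2, 5 and 8. The mean was 0.805 ± 0.316 CPM against 0.554 ± 0.131 (SD, n = 3 each), with recipients 5 and 8 above the controls and recipient 2 among them (log2 difference 0.55, SE 0.39, adjusted p = 0.846). Cd3g had 18, 18 and 35 counts in control-microbiota recipients and 17, 15 and 31 in LDP-microbiota recipients (log2 difference -0.28, SE 0.36). Klrb1c had 8, 8 and 17 counts against 20, 14 and 22, with recipient 7 above 1 of the LDP-microbiota livers (0.67, SE 0.38, adjusted p = 0.846). Nkg7 had 12, 9 and 14 counts against 8, 16 and 23 (0.33, SE 0.42), and Gzma 12, 15 and 26 against 7, 10 and 21 (-0.58, SE 0.43). These cytotoxic genes therefore had no common direction.

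The B cell members were near the limit of detection in recipients. Cd79a had 6, 9 and 2 counts in control-microbiota recipients 1, 3 and 7 and 6, 11 and 4 in LDP-microbiota recipients 2, 5 and 8. The 2 reads of recipient 7 have an exact 95% Poisson interval of 0.24 to 7.22 counts. Ms4a1 had 5, 11 and 8 counts against 11, 6 and 9, and Cd8a 6, 8 and 5 against 5, 5 and 3. These 3 genes were below the filter and were not tested. Cd79b had 7, 24 and 16 counts against 18, 22 and 26 (log2 difference 0.42, SE 0.41, adjusted p = 0.857). Of 6 members tested, 4 were higher and 2 lower with a median of 0.38, beside -0.008 over all 12780 genes. By edgeR 0 passed (0.00782% of all genes did), 0 had an unadjusted p under 0.05 (5.11% of all genes did) and 0 were free of overlap (11.8% of all genes were). DESeq2 passed 0 of the 9 members, all of which it gave an adjusted p.

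Around the members, the chemokines Cxcl9 and Cxcl10, both induced by interferon gamma, were the only genes of the lymphocyte lists at an unadjusted p under 0.05 in recipients. Cxcl9 was at 9.73, 12 and 10.7 CPM in LDP-microbiota recipients 2, 5 and 8 and at 7.73, 5.48 and 8.74 CPM in control-microbiota recipients 1, 3 and 7. Cxcl10 was at 2.05, 3.07 and 3.02 CPM against 1.11, 1.57 and 1.86 CPM. Both were higher in all 3 livers of the LDP-microbiota group, with log2 differences of 0.55 (SE 0.19) and 0.82 (SE 0.28), and neither passed (adjusted p = 0.846). They belong to a list of 9 tested genes of which 4 were higher and 5 lower. The T, NK, B and plasma cell lists counted 9 higher of 14 tested, 3 of 8, 5 of 12 and 3 of 5, and 0 genes of any list passed by edgeR or DESeq2.

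**Figure D3:**
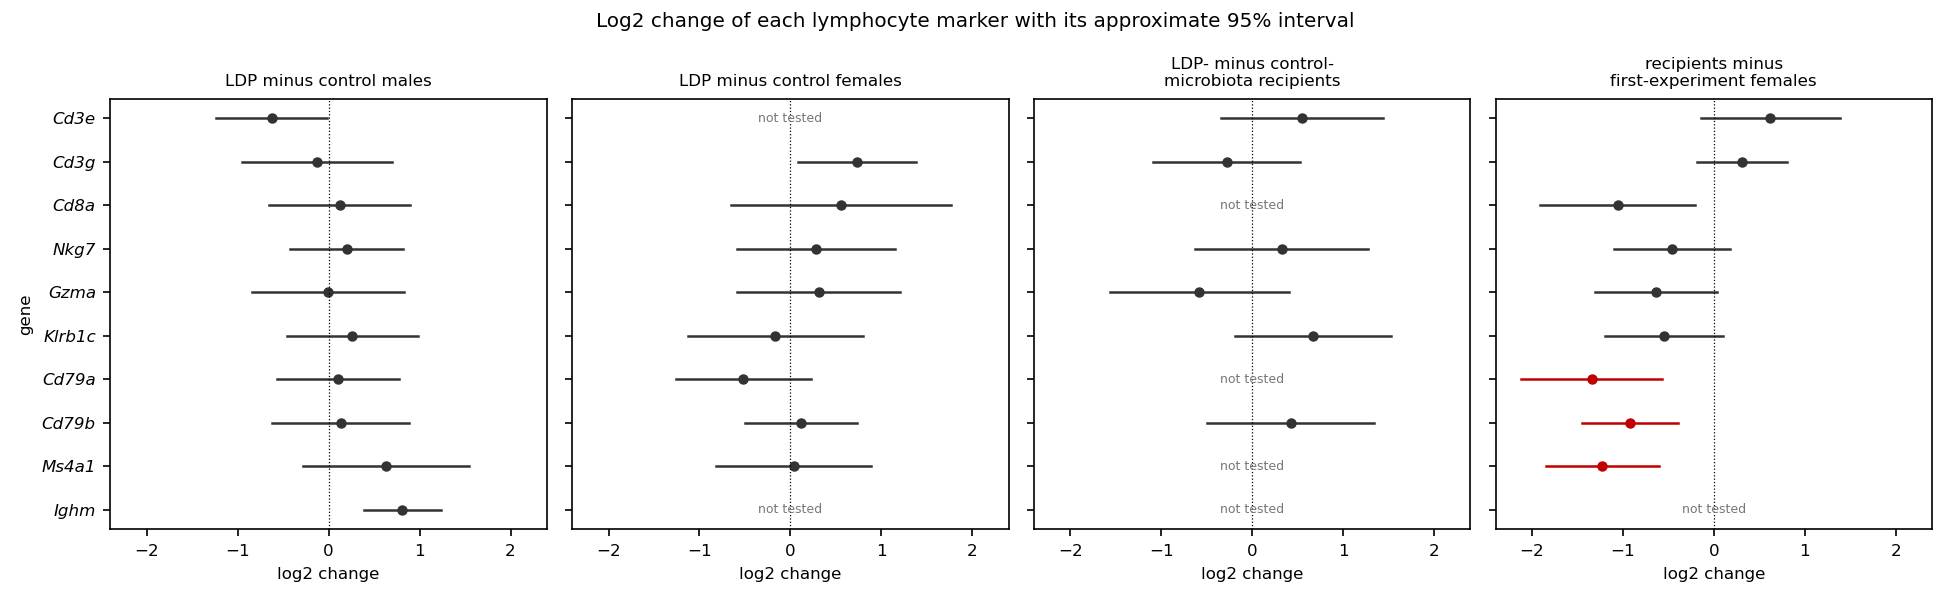
Log2 difference (x axis) of each member with its approximate 95% interval in 4 comparisons; red marks an adjusted p under 0.05 and "not tested" a gene under the filter or without a matched row. In the first 3 panels no member passed. In the last, Cd79a, Cd79b and Ms4a1 passed with lower levels in recipients, where Cd79a and Ms4a1 alone were below the filter of the third panel.

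The difference between effects was tested directly. Females and males also differ in count table, set of genes and read depth, so the part of sex cannot be told apart from these. Between the response of females and that of males, 9 members were tested and 0 passed, as 0% of all genes did; 0 members had an unadjusted p under 0.05. The largest difference was that of Cd3g (0.87, SE 0.49, 95% interval -0.19 to 1.93, adjusted p = 1). The 3 B cell members tested here had differences of -0.61 (Cd79a), -0.005 (Cd79b) and -0.58 (Ms4a1), with SEs of 0.44, 0.44 and 0.59. In the lymphocyte lists 0 genes passed, and 6 had an unadjusted p under 0.05. Genes tested were 23 (T cell), 19 (NK and cytotoxic), 21 (B cell), 7 (plasma cell and immunoglobulin), 14 (chemokine and survival) and 20 (receptor signalling). The share of all genes under that p was not computed for this difference, so these counts are no result about the members or the lists. Cd8b1, Cxcl10, Jchain and Irf4 had larger values in the female response, by 2.57, 1.87, 1.41 and 1.12, and Fcmr and Cxcr5 smaller ones, by -1.96 and -1.11, all at an adjusted p of 1. Between the response of treated females and that of recipients, 9 members were tested and 0 passed (0% of all genes did). Cd3g, with a difference of 0.996 (SE 0.46, adjusted p = 0.788), was the 1 member at an unadjusted p under 0.05, where 5.94% of all genes were. Both tests use the same treated and control females, so they are not independent. DESeq2 was not run on these differences.

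With all mice included, edgeR passed members in no comparison except that between the experiments. This comparison, of all 6 recipients with all 6 females of the first experiment, was added after the values were seen. The B cell genes Cd79a, Cd79b and Ms4a1 were lower in recipients and all 3 passed. Cd79a and Ms4a1 were below the filter among recipients alone and entered this fit through the higher counts of the other females. Their calls carry that selection and are no independent support for lower levels in recipients. In recipients Ms4a1 ran from 0.252 to 0.5 CPM with a median of 0.354, and in the other females from 0.447 to 1.23 with a median of 0.946. The log2 difference was -1.23 (SE 0.29, 95% interval -1.85 to -0.60, adjusted p = 0.00704). Cd79a ran from 0.093 to 0.602 CPM (median 0.288) in recipients and from 0.432 to 1.01 (median 0.741) in the others, a difference of -1.34 (SE 0.36, 95% interval -2.12 to -0.57, adjusted p = 0.0146). Cd79b ran from 0.353 to 1.2 CPM (median 0.895) and from 1.09 to 1.94 (median 1.75), a difference of -0.92 (SE 0.25, 95% interval -1.46 to -0.39, adjusted p = 0.014). For each of the 3 genes the ranges met at the edge, and 0 members were free of overlap, where 13% of all genes were.

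No T or NK member passed in this comparison. Cd3e and Cd3g were the 2 members with higher values in recipients, at log2 differences of 0.62 (SE 0.35, adjusted p = 0.217) and 0.31 (SE 0.23, adjusted p = 0.336). Cd8a was lower at -1.06 (SE 0.39, adjusted p = 0.0637), and it passed without control female 30 (-1.23, adjusted p = 0.0404) or without LDP female 39 (-1.24, adjusted p = 0.023). Like Cd79a and Ms4a1, Cd8a was below the filter among recipients alone. Gzma, Klrb1c and Nkg7 were at -0.63, -0.55 and -0.46, with SEs of 0.31, 0.30 and 0.30, and Gzma passed without LDP female 39 (-0.81, adjusted p = 0.0455). Of 9 members 3 passed, all lower, where 14.2% of all 13295 genes passed lower and 12.6% higher, and their median was -0.63 beside 0.004 over all genes. Strain, germ-free start, the start of the diet and experiment divide these mice in the same way and cannot be told apart, and the reads of both strains were counted against mm10, the genome of C57BL/6J.

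**Figure D4:**
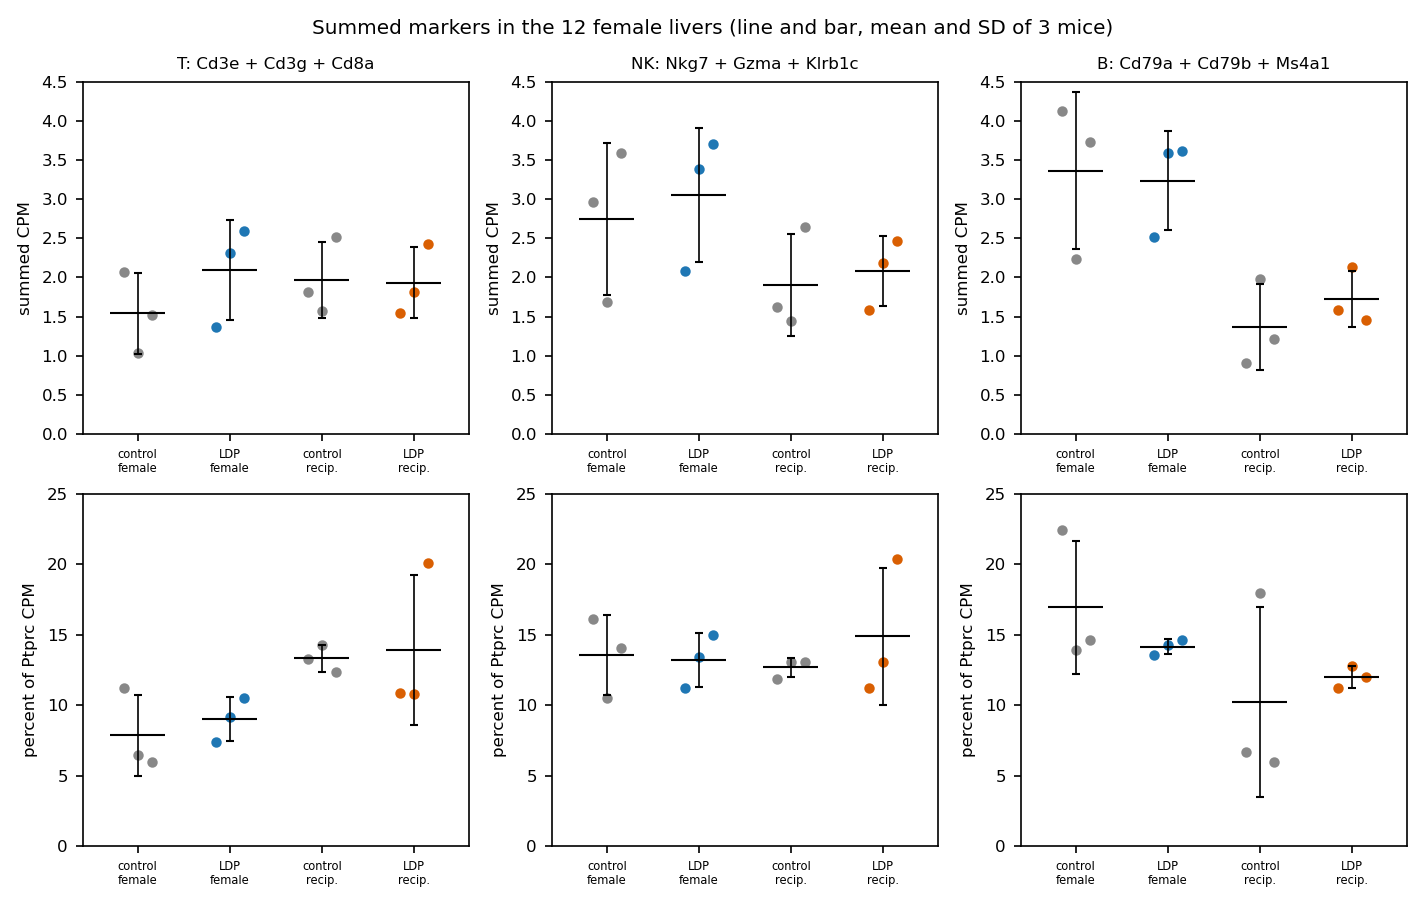
Summed CPM of 3 markers per lineage (upper row) and the same sum as a percentage of Ptprc CPM (lower row) in 12 female livers; points are mice, and the line and bar are the mean and SD of 3. The B cell sum is 0.909 to 2.13 CPM in recipients and 2.23 to 4.13 CPM in the other females, while the T cell sums overlap.

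Summed by lineage, Cd79a, Cd79b and Ms4a1 reached 0.909 to 2.13 CPM in recipients and 2.23 to 4.13 CPM in the other females. The sum of Cd3e, Cd3g and Cd8a was 1.55 to 2.51 CPM in recipients and 1.04 to 2.59 CPM in the others, and that of Nkg7, Gzma and Klrb1c 1.44 to 2.65 and 1.69 to 3.7 CPM. Ptprc, the gene of CD45 that all leukocytes carry, was itself lower in recipients, at 14.6 ± 3.35 against 21.4 ± 4.2 CPM (SD, n = 6 each; log2 difference -0.55, adjusted p = 0.0271). That call was lost when any of 7 mice was left out (adjusted p = 0.0535 to 0.0672). Relative to Ptprc, the T cell sum was 10.8 to 20.1% in recipients and 5.96 to 11.2% in the others. On that scale the B cell sum was 5.99 to 18% and 13.6 to 22.4%, and the ranges overlapped through recipient 3 alone, at 18%. The other recipients, at 5.99 to 12.8%, lay below every first-experiment female. Recipient 7 had the lowest percentage, with the highest Ptprc among recipients (20.2 CPM) and the lowest Cd79a (0.093 CPM).

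The list of further B cell genes had 15 of 16 tested genes lower in recipients, with a median of -0.42. Of these 3 of 16 passed lower by edgeR, near the 14.2% of all genes that did, and 4 by DESeq2, so the count is no result about the list. Cd180, a toll-like receptor homologue of B cells and macrophages, was at 1.73 ± 0.37 CPM in recipients and 4.19 ± 0.49 CPM in the others (SD, n = 6 each), with no overlap (log2 difference -1.29, adjusted p = 9.22e-05). Cd72, an inhibitory coreceptor of B cells, was at 1.52 ± 0.46 and 4.1 ± 0.594 CPM, again with no overlap (-1.44, adjusted p = 0.000243). Blk, a Src-family kinase of B cells, was at 0.276 ± 0.102 and 0.635 ± 0.274 CPM (-1.23, adjusted p = 0.0217), but missed the threshold when any of 4 mice was left out. In the T cell list 7 of 19 tested genes were higher and 12 lower, and 0 passed by edgeR (3 unadjusted) or DESeq2. Thy1, a surface protein of T cells, was at 2.36 ± 0.64 CPM in recipients and 1.6 ± 0.333 CPM in the others (0.55, adjusted p = 0.0511), and passed without control female 32, recipient 7 or recipient 2. Of 10 tested NK and cytotoxic genes 2 passed, both lower, again near the 14.2% of all genes: Gzmb, the granule protease granzyme B (0.543 ± 0.14 against 1.17 ± 0.325 CPM, adjusted p = 0.00307), and Ccl5, a chemokine of activated T and NK cells (0.811 ± 0.113 against 1.6 ± 0.709 CPM, adjusted p = 0.0341). Ccl5 passed in 10 of 19 alternatives and Gzmb in all 18 in which it was tested.

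Of the chemokine and survival genes for lymphocytes, 4 of 10 tested passed with lower levels in recipients, and all 10 were below 0 on the log2 scale. Over all genes, 14.2% passed lower, and the list counts given here were not tested against that share. Cxcl9 was at 9.07 ± 2.31 CPM in recipients and 36.6 ± 25.4 CPM in the other females (log2 difference -1.97, adjusted p = 0.00287), and Cxcl10 at 2.11 ± 0.788 and 8.94 ± 8.01 CPM (-1.98, adjusted p = 0.00335), both without overlap. Cxcl13, the chemokine that attracts B cells through Cxcr5, was at 1.25 ± 0.558 and 2.84 ± 1.04 CPM (-1.18, adjusted p = 0.0194), but missed the threshold without control female 32 (-0.95, adjusted p = 0.0551). Cxcl16 was at 8.1 ± 0.826 and 10.9 ± 1.83 CPM (-0.41, adjusted p = 0.00955). Receptor signalling genes counted 8 lower of 20 that passed, among them Lcp2, Syk and Ptpn22, at log2 differences of -0.76, -0.47 and -1.11. Prdm1, a regulator of plasma cells, was at 0.543 ± 0.148 and 0.825 ± 0.142 CPM (adjusted p = 0.0439), and passed in only 7 of 18 alternatives. Jchain, singled out after its values were seen, went against the B cell genes, with a median of 2.25 CPM in recipients and 0.715 CPM in the others and overlapping ranges.

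Markers of other cells moved with this comparison too, in which 14.2% of all genes passed lower and 12.6% higher. The counts of these short lists were not tested against those shares. Of 10 Kupffer cell genes 6 passed, all lower in recipients, and the list summed to 676 to 781 and 614 to 877 CPM in LDP- and control-microbiota recipients and to 828 to 1050 and 745 to 1020 CPM in LDP and control females. Of 8 tested monocyte genes 5 passed, all lower, with sums of 74 to 92 and 77.4 to 95.8 CPM in recipients and 129 to 139 and 95.3 to 124 CPM in the others. In the dendritic cell list 3 of 8 passed, all lower, with sums of 8.63 to 12.8 and 9.9 to 17.2 CPM against 16.2 to 20.2 and 14.4 to 16.8 CPM. All 5 mesothelial genes were lower and 2 passed, with a median log2 difference of -1.46, beside -1.23 for the 3 tested B cell members, and sums of 2.3 to 4.97 and 0.944 to 7.25 CPM against 8.32 to 21.7 and 5.2 to 6.35 CPM. No gene of these 4 lists was at 0 throughout a group. Of 7 endothelial genes 2 passed lower and 1 higher, and Lyve1, a receptor of lymphatic and sinusoidal endothelium, was at 6.22 ± 3.77 against 32.4 ± 12.6 CPM (-2.34, adjusted p = 0.00214). Red blood cell genes mostly went up instead, with 5 of 6 tested higher, 1 lower and 4 passing higher. Their sums were 111 to 175 and 107 to 463 CPM against 41 to 75.6 and 51.1 to 96 CPM. Hba-a1 was at 0 in all 4 groups, and Hba-a2 was at 0 throughout both recipient groups but not throughout either group of the other females. The part of these cells in the lower B cell markers was not tested.

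The genes whose levels followed each lineage most closely over the 18 livers were found from log2(CPM + 0.25), centred on the mean of each group of 3, among 10389 genes of both tables. Among the genes the T cell members varied most like were Saa3 (Pearson r = 0.90, Spearman rho = 0.85), Pitpnm1 (0.86, 0.80), Il2rb (0.85, 0.90) and Nfatc2ip (0.82, 0.78). Without the 2 livers farthest from the median the r of these 4 genes was 0.84, 0.75, 0.83 and 0.76. For the NK members they were Arhgap9 (r = 0.88, rho = 0.83), N4bp3 (0.87, 0.83), Siglece (0.85, 0.80), Cd300a (0.84, 0.82) and Marco (0.84, 0.76), with 0.87, 0.84, 0.75, 0.83 and 0.77 without the 2 farthest livers. For Cd79a, Cd79b and Ms4a1 they were Kbtbd11 (r = 0.82, rho = 0.80), Sh2b2 (0.80, 0.77), Adora2a (0.77, 0.76), Coro1a (0.77, 0.75) and Slc37a1 (0.76, 0.69), with 0.75, 0.70, 0.66, 0.70 and 0.68. Ptprc followed the T, NK and B cell members with an r of 0.48, 0.65 and 0.23. These are the highest of many values, points of 1 library share its depth, and no test was made.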

How the data were processed

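Liver RNA of 18 mice was sequenced, with the RNeasy Mini Kit and TruSeq v2 preparation per the labels' protocols. The authors deposited raw counts per gene and mouse, with no pooling, in a table of 6 males (with a gene length) and a table of 12 females. Tools named in the submitters' processing notes, without a role, are featureCounts 1.4.3-p1, HTSeq 0.5.3p9, STAR 2.3.0e and DESeq, with the build mm10; strandedness and the treatment of shared reads are not given in the sources used here. Columns were matched to mice by name, with 0 unmatched. Male Ensembl IDs were given symbols through GENCODE M21 (96.6% matched), and 7 listed genes were found under an older name in the female table. Levels were not compared between the tables.

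From these counts, low genes were removed with filterByExpr at a minimum count of 10 and a minimum total of 15. TMM factors were applied, and edgeR 4.0.16 in R 4.3.3 gave two-sided robust quasi-likelihood tests, with Benjamini-Hochberg adjustment over all genes and a threshold of 0.05. Printed CPM use TMM-scaled library sizes. Fits between 2 groups held only the 6 mice of those groups. Differences of effects used 12 libraries with 1 coefficient per group, over the 20065 names in both tables or over the female table. SEs and 95% intervals derive from the F statistic and are approximate. The fit was tested on simulated data. Alternatives were DESeq2 1.42.0, other scaling factors or none, other filters, a fit that is not robust, a shared spread, and each mouse left out. The members, the gene lists and the tests were chosen with earlier results of these data known, and the comparison of recipients with first-experiment females was added after its values were seen. Named genes are all members, the listed genes that passed or up to 3 of smallest p per list, and the 5 genes most like each lineage; Jchain in males and between experiments was named after its values were seen. This rule also chose 2 genes that are left out here.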

Additional observations from a re-analysis of the deposited data

How the results depend on the processing

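No paired analysis was possible because the groups compared share fewer than 2 replicate numbers. In males, 1 member (Ighm) passed under DESeq2 and 1 without LDP male 11, against 0 by edgeR, and leaving out each mouse gave 0 to 1. In recipients against first-experiment females, 3 members passed; 1 did under the filter at a mean of 1 CPM, where 1 member was left to test, and leaving out each mouse gave 3 to 5, the 5 without LDP female 39. Calls over all genes also moved: DESeq2 called 42 genes in males, 14 in females and 20 in recipients, where edgeR called 1, 0 and 1, and edgeR without LDP male 11 called 66. The cause was not tested. Over 84 gene results and their 1277 values under an alternative, 1223 kept their direction with no change of side of the threshold. DESeq2 values without an adjusted p were counted among these by direction alone. Of the rest, 32 no longer passed, 8 newly passed and 14 changed sign, 0 of these 14 from a value that passed. The sign changes came from leaving out 1 mouse, over which the log2 difference ran from -0.54 to 0.13 (Cd3g), -0.003 to 0.36 (Cd8a), -0.36 to 0.25 (Gzma), -0.12 to 0.26 (Cd79a) and -0.13 to 0.43 (Cd79b) in males, from -0.003 to 0.66 (Nkg7), -0.50 to 0.52 (Klrb1c), -0.094 to 0.27 (Cd79b) and -0.29 to 0.31 (Ms4a1) in females, and from -0.49 to 0.11 (Cd3g) in recipients. At 2 to 76 reads per liver for members other than Ighm, differences of the size of these SEs were not detectable.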
